A study of Mus musculus with 2 samples.

Results

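The nuclear genes for subunits of oxidative phosphorylation were described across colon immune cells of 5XFAD mice and wild-type (WT) littermates. Members were taken by name alone: every gene of the expression table whose symbol starts with Nduf and a letter a, b, c, s or v followed by a digit, with Uqcr, with Cox and a digit from 4 to 8, or with Atp5, leaving out symbols with -ps. This gave 80 of 32285 genes: 37 of complex I, 8 of complex III, 18 of complex IV and 17 of the ATP synthase. The name rule leaves out Ndufab1 of complex I and Cyc1 of complex III, which are given below among related genes, and it counts Ndufa4 with complex I, although its protein is now placed in complex IV.

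The respiratory chain sits in the inner mitochondrial membrane. Complex I oxidises NADH, complex III passes electrons from ubiquinol to cytochrome c, and complex IV passes them to oxygen; the proton gradient that they build drives the ATP synthase. A few core subunits are encoded by mitochondrial DNA and all others by nuclear genes, so each complex except complex II is put together from proteins of both genomes. Resting and activated lymphocytes are known to differ in how far they rely on this pathway and on glycolysis.

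Leukocytes that were alive and carried the surface marker CD45 were sorted from the colon lamina propria of female mice at 9 months, and their RNA was sequenced cell by cell. The 5XFAD strain carries human transgenes with familial Alzheimer's disease mutations under the neuronal Thy1 promoter, and WT littermates do not carry them. For each genotype, cells of 3 mice were pooled and captured as 1 library with the 10x 3′ chemistry. The genotype was therefore measured once on each side: no test between genotypes is possible, a difference between the libraries cannot be told apart from a difference between captures, and the intervals below cover counting error only.

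Each library held 3443 cells, with 18604847 unique molecular identifiers (UMIs, 1 per captured transcript) in 5XFAD and 17939499 in WT, and its median cell had 5209 UMIs against 4938. No 5XFAD cell but 106 WT cells had 2500 genes or more. The median share of mitochondrial UMIs was 4.84% and 4.91%. CD45 itself (Ptprc) was detected in both libraries, at 736 and 1102 CPM (UMIs of the gene for every 1e+06 UMIs). The deposited clusters, 0 to 16, carry no cell type names. Clusters 0 to 5 were called B cell-like, since 6 of 6 B cell markers reached 20 CPM in each of them. Clusters 6 and 7 met the same rule but were left out of this set by choice, and they are given apart below. Clusters 0 to 5 held 2364 and 2538 cells and 12383617 and 12672379 UMIs. In them the summed B cell markers stood at 5119 CPM in 5XFAD and 5173 in WT. The 5 T cell markers summed to 11.2 CPM in each library there, and the 5 macrophage or dendritic cell markers to 5.81 and 9.63 CPM. Among the other lists, the plasma cell markers summed to 150 CPM in 5XFAD and 104 in WT, the ILC2 markers to 103 and 79.5 CPM, and the stromal or endothelial markers to 41.3 and 81.4 CPM; their part in the results on these clusters was not tested.

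In the B cell-like cells, most member transcripts took a larger share of the UMIs of the 5XFAD library. A member was called measured with at least 50 UMIs over both libraries, and higher or lower where its CPM differed by at least 0.3 on the log2 scale. Of the 72 measured members, 41 were higher in 5XFAD, against 15.9% of the 9679 genes measured in these cells, and 1 was lower, against 34.3% of them. The median log2 ratio of 5XFAD over WT was 0.34 for the members and -0.12 for all measured genes, so that relative to the median gene the members stood at 0.47. These shares of all genes depend on the scaling. Scaled to the median gene, 52 members were higher, against 23.9% of genes, and 0 lower, against 24.7%. Scaled to a total without mitochondrially encoded, ribosomal protein and immunoglobulin genes, 47 were higher, against 21.1%, and 0 lower, against 27.6%. With a limit of 0.5 on the log2 scale and scaling by total UMIs, 22 members were higher, against 6.95% of all measured genes, and 0 were lower, against 19.8%.

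Summed over the members, the share of UMIs was 1.35% in 5XFAD and 1.05% in WT, a log2 ratio of 0.37 (95% interval 0.36 to 0.38). By complex, the shares were 0.369% and 0.284% for complex I, 0.140% and 0.112% for complex III, 0.373% and 0.296% for complex IV, and 0.473% and 0.354% for the ATP synthase. The share was higher in 5XFAD for each of the 4 complexes, with log2 ratios from 0.32 to 0.42. Genes encoded by mitochondrial DNA did not show this: their share was 5.06% in 5XFAD and 5.17% in WT. A larger share in 5XFAD was not particular to the members: genes matching the symbols of cytosolic ribosomal proteins took 31.5% in 5XFAD and 27.5% in WT, a log2 ratio of 0.20.

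**Figure D1:**
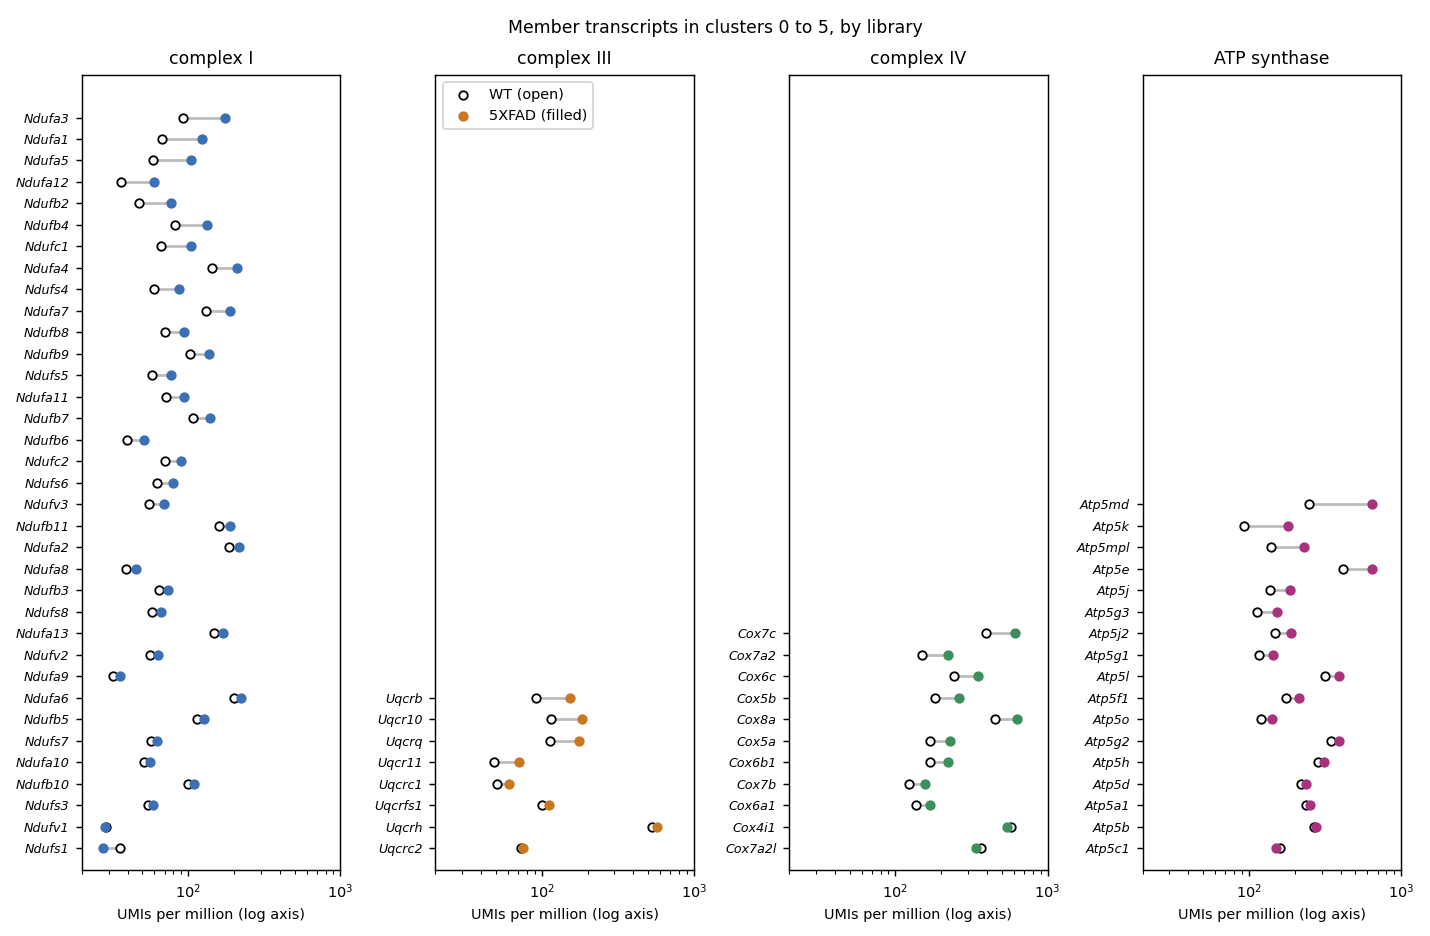
Each row is 1 of 71 measured members in clusters 0 to 5, ordered within its complex by the ratio of the libraries. Open circles give WT and filled circles 5XFAD, in CPM on a log axis. Filled circles lie to the right of open ones for 66 members and to the left for 5 when scaled by total UMIs, and for 70 and 1 when scaled to the median gene.

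A group of 5 members were below 0 in the B cell-like cells: Ndufs1 at -0.36, Atp5c1 at -0.10, Cox7a2l at -0.09, Cox4i1 at -0.08 and Ndufv1 at -0.02, and of these only Ndufs1, at -0.23, stayed below 0 when the libraries were scaled to the median gene. Scaling to the reduced total left 3 below 0.

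In complex I, 19 of 36 measured members were at least 0.3 higher in 5XFAD and the median log2 ratio was 0.34. Ndufa3 (ENSMUSG00000035674, chr7:3617373-3620327), an accessory subunit of the membrane arm, had 2146 UMIs or 173 CPM in 5XFAD and 1163 UMIs or 91.8 CPM in WT, a log2 ratio of 0.92 (0.81 to 1.02). Ndufa1, an X-linked accessory subunit needed for assembly of the membrane arm, stood at 123 and 67.5 CPM, a log2 ratio of 0.87 (0.75 to 0.99). Ndufa5, an accessory subunit of the peripheral arm, stood at 104 and 58.7 CPM, a log2 ratio of 0.82 (0.69 to 0.96). The remaining measured members of complex I ran from 0.10 for Ndufs3, a core subunit at 58.3 and 54.4 CPM, to 0.72 for Ndufa12, an accessory subunit at 59.6 and 36.1 CPM. Among them were Ndufs4 (86.9 and 59.4 CPM, 0.55) and Ndufs6 (79.7 and 62.5 CPM, 0.35), both known for a role in the last steps of assembly, and Ndufb11 (188 and 159 CPM, 0.24), which like Ndufa1 is X-linked.

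The 2 lowest ratios of complex I belonged to core subunits. Ndufs1 (chr1:63143596-63176833), the largest core subunit, which carries iron-sulfur clusters, had 343 UMIs or 27.7 CPM in 5XFAD and 449 UMIs or 35.4 CPM in WT, a log2 ratio of -0.36 (-0.56 to -0.15). Ndufv1, which binds NADH and the flavin, had 350 and 364 UMIs, or 28.3 and 28.7 CPM, and its interval, -0.24 to 0.19, holds 0. Members were also sorted by role in each complex, a grouping made after the values were seen. Each such count uses scaling by total UMIs and stands beside the 15.9% of all genes that were at least 0.3 higher. Scaled to the median gene, every log2 ratio rises by 0.12, and 23.9% of all genes pass 0.3. Of complex I, 0 of the 7 nuclear core subunits reached 0.3, with a median of 0.15. Of 28 accessory subunits 18 did, with a median of 0.39. Scaled to the median gene, core subunits such as Ndufs8 (0.32) and Ndufv2 (0.304) passed 0.3 as well. With the reduced total the core subunits stayed under it. Ndufa4 was at 210 and 142 CPM, a log2 ratio of 0.56.

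In complex III, 4 of 8 members were at least 0.3 higher and the median was 0.40. Uqcrb (chr13:66900617-66905378), which helps form the ubiquinone-binding region, stood at 152 CPM in 5XFAD and 91.6 in WT, a log2 ratio of 0.73 (0.63 to 0.84). Uqcr10 was at 183 and 114 CPM (0.68) and Uqcrq at 175 and 113 CPM (0.63), both small subunits without a redox centre. Uqcrc2, a core protein, was at 75.7 and 73.1 CPM, and its interval, -0.08 to 0.18, holds 0. Between these lay Uqcr11, a small subunit, at 70.3 and 48.6 CPM (0.53), Uqcrc1 at 61.0 and 51.0 CPM (0.26) and Uqcrfs1 at 112 and 101 CPM (0.15). Uqcrh, the hinge protein, stood at 568 and 527 CPM, a log2 ratio of 0.11 (0.06 to 0.16). Scaled by total UMIs, the core proteins Uqcrc1 and Uqcrc2 and the Rieske iron-sulfur protein Uqcrfs1 all stayed under 0.3, with a median of 0.15. Of the 5 small subunits 4 passed it. Uqcrc1 also passed it, at 0.38, when scaled to the median gene and, at 0.35, with the reduced total.

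Complex IV had the largest share of members past the limit: 9 of 11 measured members were at least 0.3 higher, with a median of 0.43. Cox7c (chr13:86044816-86046904) stood at 610 CPM in 5XFAD and 392 in WT, a log2 ratio of 0.64 (0.59 to 0.69). Cox7a2 was at 221 and 149 CPM (0.57) and Cox6c at 350 and 244 CPM (0.52). The other 6 past the limit ran from 0.30 for Cox6a1, at 170 and 138 CPM, to 0.51 for Cox5b, at 261 and 183 CPM, and included Cox5a (229 and 170 CPM, 0.43), Cox8a (628 and 454 CPM, 0.47) and the X-linked Cox7b (156 and 123 CPM, 0.35). The remaining pair lay near 0: Cox4i1, the subunit at which ATP inhibits the enzyme, had 541 and 573 CPM (-0.08), and Cox7a2l, known as a factor that holds complexes III and IV together in supercomplexes, had 340 and 363 CPM (-0.09). Both were above 0, at 0.04 and 0.03, when scaled to the median gene.

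The ATP synthase held the member with the largest ratio. Atp5md (also Usmg5, ENSMUSG00000071528, chr19:47083464-47090647 on the minus strand), a small membrane subunit known as DAPIT and thought to help link synthase dimers, had 7946 UMIs or 642 CPM in 5XFAD and 3127 UMIs or 247 CPM in WT. This is a 2.60-fold difference, a log2 ratio of 1.38 (1.32 to 1.44). Atp5md alone made up 4.74% of the member UMIs in 5XFAD and 2.36% in WT. Atp5k, subunit e, which also lies at the dimer interface, stood at 180 and 92.7 CPM, a log2 ratio of 0.96 (0.86 to 1.06). Atp5mpl, a small proteolipid of the membrane part, was at 230 and 140 CPM (0.72).

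The small membrane subunits Atp5k, Atp5j2, Atp5l, Atp5mpl and Atp5md were at least 0.3 higher in 5 of 5 cases, with a median of 0.72. In the F1 part (Atp5a1, Atp5b, Atp5c1, Atp5d and Atp5e), which holds the catalytic sites, 1 of 5 was, with a median of 0.09: Atp5e, the epsilon subunit, at 642 and 417 CPM (0.62). The other F1 subunits were closer in the 2 libraries. Atp5b, the catalytic beta subunit, stood at 276 and 267 CPM (0.04, interval -0.03 to 0.11), and Atp5c1, the gamma subunit of the rotor, at 150 and 161 CPM (-0.10, or 0.02 when scaled to the median gene). In the peripheral stalk 1 of 4 reached 0.3, and in groups this small a count of 1 is near the share of all genes. It was Atp5j, coupling factor 6, at 187 and 137 CPM (0.44). Atp5f1, subunit b, was at 213 and 174 CPM (0.29), and Atp5o, which confers oligomycin sensitivity, at 141 and 120 CPM (0.24). Atp5h, subunit d, was at 310 and 283 CPM (0.13). Atp5f1 and Atp5o passed 0.3 under both other scalings, at 0.42 and 0.36 when scaled to the median gene.

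Where several genes code for 1 position in a complex, the libraries could be compared by the share each gene takes of the family's UMIs, which needs no scaling of the libraries. Subunit c of the rotor ring is made from Atp5g1, Atp5g2 and Atp5g3, which yield the same mature protein. In the B cell-like cells Atp5g2 took 56.9% of their 8535 UMIs in 5XFAD (95% exact Clopper-Pearson interval 55.8% to 57.9%) and 60.4% of 7302 in WT (59.3% to 61.5%). In clusters 8 to 14 and 16 it took 51.7% and 51.8%, with overlapping intervals. Within each of clusters 0 to 5 the Atp5g2 share was lower in 5XFAD, but the intervals were apart only in cluster 0 (58.5% and 64.1%). The share also differed between clusters, from 52.8% in cluster 1 to 61.9% in cluster 4 within 5XFAD. The libraries fill these clusters unequally, and the part of this mix in the summed difference was not tested. Cox7a2 took 39.4% of the summed Cox7a2 and Cox7a2l UMIs in 5XFAD and 29.1% in WT, and 44.1% and 34.2% in clusters 8 to 14 and 16. For this pair the direction was the same in each of the 17 clusters, although the intervals overlapped in several.

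The 8 members that were not measured in the B cell-like cells were Ndufa4l2, Cox4i2, Cox6a2, Cox6b2, Cox7a1, Cox7b2, Cox8b and Cox8c, which are known as isoforms of muscle, testis, lung or hypoxic cells. Over all cells of a library, Cox7a1 had 21 UMIs in 5XFAD and 12 in WT, and Cox6b2 had 10 and 9. Cox6a2 had 3 and 4, Cox8b 0 and 2, and Ndufa4l2 1 and 0. Cox4i2, Cox7b2 and Cox8c had 0 in both. A count of 0 allows up to 0.161 CPM in 5XFAD and 0.167 CPM in WT, counting 3 UMIs over the library. Cox6a1, the general form, had 2105 and 1745 UMIs in the B cell-like cells, where Cox6a2 had 0 of 2105 and 0 of 1745 UMIs of the pair.

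Members with longer gene products tended to have lower ratios. Across the 72 measured members of the B cell-like cells, Spearman's rho between the log2 ratio and the longest annotated coding length was -0.71, and -0.90 over the 17 members of the ATP synthase. Against the median length of the annotated protein-coding transcripts it was -0.55 for the members and -0.33 over 9640 measured genes. These are descriptions across genes of the same 2 libraries, which are not independent points. The median transcript length can fall below the longest coding length: it is 651 against 2181 bases for Ndufs1, 533 against 1440 for Uqcrc1 and 382 against 393 for Ndufa6. Counts by transcript length thus place Ndufs1, the measured member with the longest coding length, among the short ones. Of the 56 measured members with a median transcript under 1000 bases, 38 were at least 0.3 higher, against 28.1% of all genes of such length. Of the 16 longer ones 3 were, against 12.7%. In the narrower range from 500 to 1000 bases the median was 0.37 over 44 members and 0.03 over 1792 genes, and under 500 bases it was 0.65 over 12 members and 0.19 over 218 genes. The grouping by role given above also runs along coding length. Core subunits of complex I have from 636 bases (Ndufs8) to 2181 (Ndufs1), while the accessory Ndufa3, Ndufa1 and Ndufa5 have 300, 210 and 348. Some accessory subunits are long, such as Ndufv3 with 1404. In F1, Atp5e has 156 bases and Atp5a1 1659. Role and length were not separated, and the part that either has in the members' ratios was not tested.

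**Figure D2:**
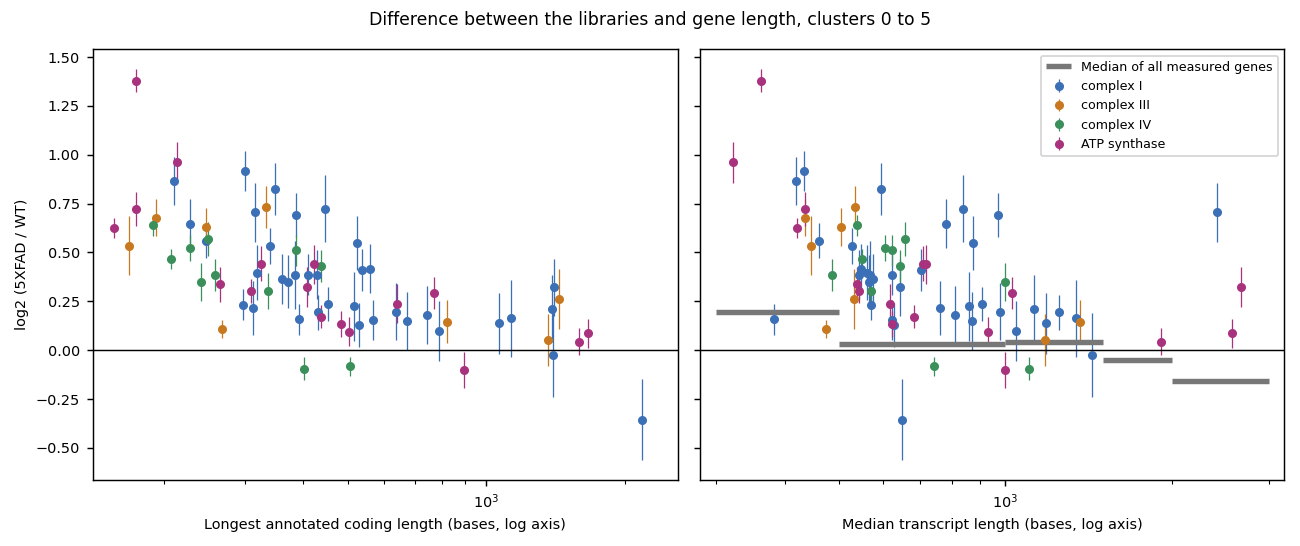
Each point is 1 of the 72 measured members in clusters 0 to 5, coloured by complex. The log2 ratio of 5XFAD over WT, with its 95% counting interval, is plotted against coding length (left) and median transcript length (right), both in bases on log axes. Grey bars give the median of all measured genes in each length range. Atp5md stands above all others at 1.38, while Atp5e, with the shortest coding length, is at 0.62. Ndufa6 is at 0.16 and has one of the shorter median transcripts, 382 bases, which is below its longest coding length of 393.

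Promoters of the members were searched for letters of 3 factors known to act on respiratory genes, NRF1, the ETS family that includes GABP, and YY1. RefSeq promoters (GRCm38.p6, 250 bases before to 50 after each start) were matched for 65 of 80 members. On either strand, GCGCANGCG (NRF1) was found in 18 of 65, or 27.7%, against 7.03% of 27025 genes. CCGGAAG (ETS) was found in 15, or 23.1%, against 9.93%, and AAGATGGCG (YY1) in 7, or 10.8%, against 1.64%. At least 1 of these occurred in 33 members, or 50.8%, against 16.5% of genes. The 27025 genes are all those with a RefSeq promoter, whether or not they were measured in these cells. A comparison with the measured genes alone was not made. For a match to at least 1 of the 3, the ratios between the libraries lay close. In the B cell-like cells the median was 0.35 over 33 members with a match and 0.34 over 28 measured members without one. By single factor, the medians with and without a match were 0.30 and 0.36 for NRF1, 0.39 and 0.33 for ETS, and 0.35 and 0.34 for YY1. These differences were not tested.

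To show such matches beside a high and a low ratio, the 250 bases before the start are given 5′ to 3′ for 4 members, with matched letters in capitals. Atp5k (log2 ratio 0.96) has 2 overlapping NRF1 matches, on opposite strands, and Ndufb4 (0.69) has 3 separate ones. Atp5e (0.62) and Ndufs3 (0.10), whose ratios differ, each have 1 ETS match. Only the first listed start is shown. Matches after the start or at another start are not seen, such as the ETS match counted above for Atp5k.
Atp5k (chr5:108434400-108434649, minus strand): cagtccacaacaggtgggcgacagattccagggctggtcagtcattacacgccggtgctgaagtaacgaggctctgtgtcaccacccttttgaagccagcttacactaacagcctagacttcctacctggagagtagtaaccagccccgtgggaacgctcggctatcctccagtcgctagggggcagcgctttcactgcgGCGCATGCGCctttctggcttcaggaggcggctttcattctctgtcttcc
Ndufb4 (chr16:37654369-37654618, minus strand): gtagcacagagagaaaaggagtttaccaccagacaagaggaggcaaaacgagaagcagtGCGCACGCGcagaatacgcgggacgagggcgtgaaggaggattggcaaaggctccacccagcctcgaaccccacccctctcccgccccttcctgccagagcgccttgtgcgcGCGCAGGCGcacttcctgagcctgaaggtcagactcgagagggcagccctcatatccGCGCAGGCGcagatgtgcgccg
Atp5e (chr2:174464102-174464351, minus strand): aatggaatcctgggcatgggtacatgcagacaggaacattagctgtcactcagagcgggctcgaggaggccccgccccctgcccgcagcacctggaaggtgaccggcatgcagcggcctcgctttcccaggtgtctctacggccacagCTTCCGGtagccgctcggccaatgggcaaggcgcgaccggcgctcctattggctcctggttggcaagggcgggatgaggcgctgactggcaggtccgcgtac
Ndufs3 (chr2:90904722-90904971, minus strand): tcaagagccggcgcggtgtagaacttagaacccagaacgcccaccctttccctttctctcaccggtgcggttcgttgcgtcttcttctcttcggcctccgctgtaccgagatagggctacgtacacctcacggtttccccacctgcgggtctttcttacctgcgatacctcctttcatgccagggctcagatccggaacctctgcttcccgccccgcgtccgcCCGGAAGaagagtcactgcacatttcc

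Each of the 17 clusters showed the same direction for the members as a group. The median log2 ratio of the measured members was above 0 in all 17, from 0.18 in cluster 13 to 0.67 in cluster 15. The clusters are parts of the same 2 libraries and do not replicate the comparison. Among clusters 0, 1 and 2, the members at least 0.3 higher in 5XFAD were 41, 32 and 41 of 72, against 21.3%, 14.5% and 18.8% of all genes measured in the same cluster. In clusters 3, 4 and 5 they were 40, 38 and 37 of 72, against 18.6%, 18.3% and 22.8%. Cluster 5 held 119 and 396 cells, the most unequal numbers of the 17. Clusters 6 and 7, which also held 6 of 6 B cell markers, had 31 of 72 and 41 of 69, against 23.9% and 21.0%.

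The same counts were made for the T cell and innate lymphoid clusters. In cluster 8, regulatory T cell-like, 28 of 70 measured members were at least 0.3 higher, against 21.9% of genes. Cluster 9, ILC2-like, had 29 of 71 against 20.9%. Clusters 10 and 11, with 5 of 5 T cell markers, had 31 of 70 against 19.6% and 33 of 71 against 22.4%. Cluster 12, NK or ILC1-like, had 30 of 67 against 19.6%, and cluster 13, gamma delta T cell-like, 22 of 59 against 24.1%. Clusters 8, 12 and 13 also held 5 of 5 T cell markers, and cluster 9 held 4 of 5. In cluster 12 the T cell markers summed to 783 CPM and the NK or ILC1 markers to 1302. In cluster 9 the T cell markers summed to 698 CPM and the ILC2 markers to 3752. Cluster 14, again with 5 of 5 T cell markers, had 24 of 57 against 19.6%. In cluster 16, ILC3-like with 25 and 17 cells, only 30 members were measured and 17 of them were higher, against 32.0%.

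Summed over clusters 8 to 14 and 16, with 755 and 628 cells, 25 of 72 members were at least 0.3 higher, against 15.2% of genes, and 0 were lower, against 26.8%. The median was 0.25, beside -0.07 for all measured genes. Both the count and the median were below those of the B cell-like cells, 41 of 72 and 0.34, and this difference was not tested. Atp5md stood at 775 and 368 CPM (1.08), Ndufa1 at 194 and 112 CPM (0.78) and Atp5k at 199 and 117 CPM (0.77). Cox5b, a nuclear subunit that binds zinc, was at 271 and 180 CPM (0.59) and led complex IV. Markers of other types differed in this set: the summed B cell markers were 54.2 CPM in 5XFAD and 179 in WT, and the summed ILC3 markers 708 and 146 CPM. Their part in the result was not tested.

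Cluster 15 stood apart. It held 32 and 37 cells with markers of several types: 5 of 5 macrophage or dendritic cell markers, 3 of 3 epithelial and both stromal or endothelial markers. There, 36 of 48 measured members were at least 0.3 higher, against 29.8% of genes, and the member share of UMIs was 2.05% in 5XFAD and 1.30% in WT. The summed epithelial markers were 624 CPM in 5XFAD and 321 in WT, and the macrophage or dendritic cell markers 4772 and 7560 CPM, and their part in the result was not tested. Over single cells, the upper quartile of the member share was 3.00% for 5XFAD and 1.67% for WT, while the medians were 1.32% and 1.23%. Leaving out the single cell of each library with most member UMIs brought the median log2 ratio from 0.67 to 0.43.

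**Figure D3:**
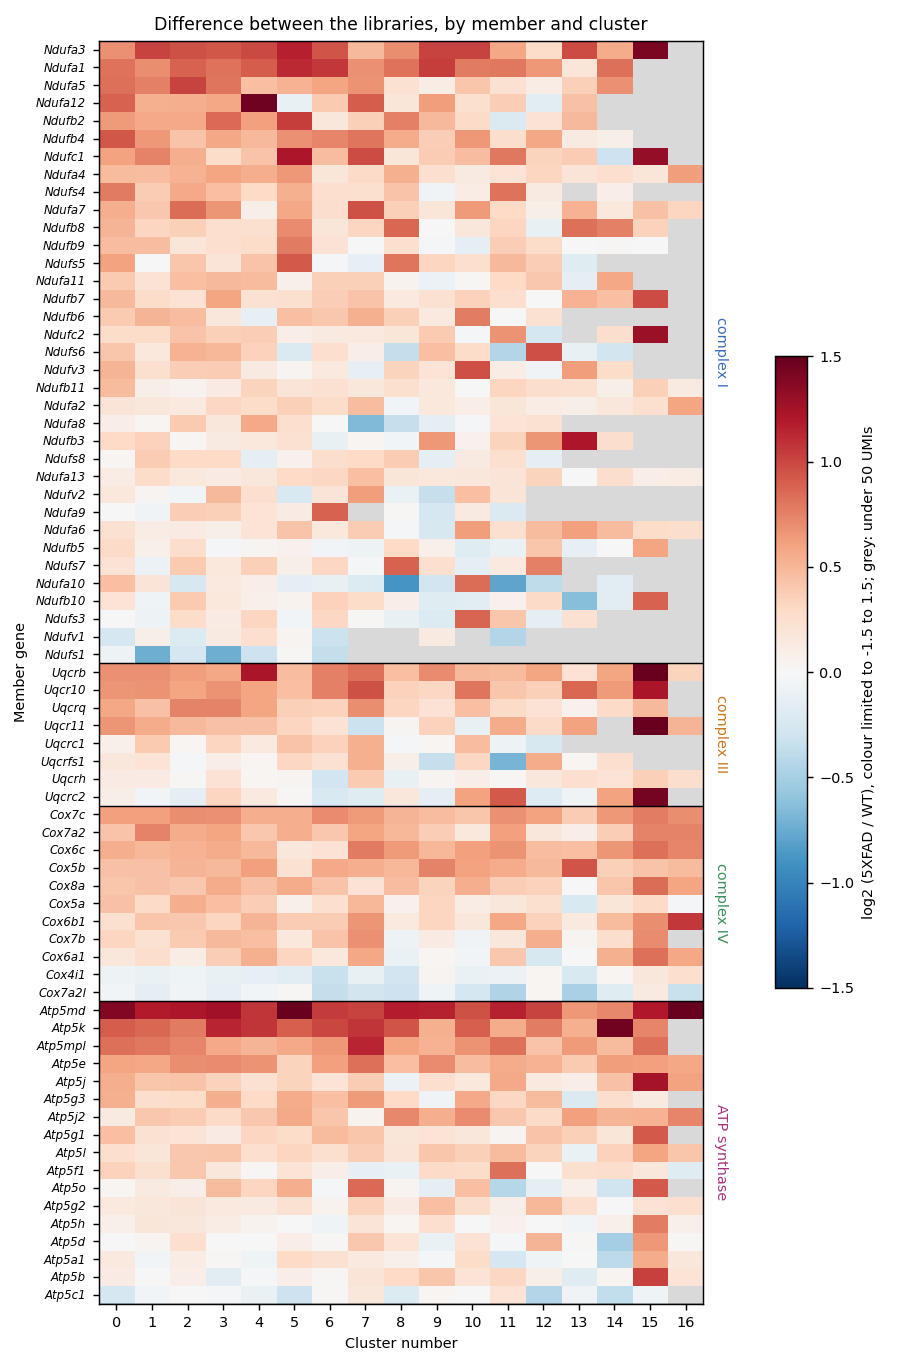
Rows are 71 members measured in clusters 0 to 5, grouped by complex and ordered by their ratio there, and columns are the 17 clusters. Colour gives the log2 ratio of 5XFAD over WT (red higher in 5XFAD, blue higher in WT, scaled by total UMIs), and grey marks fewer than 50 UMIs. Atp5md is red in all 17 columns and Cox7a2l is blue in 14 (11 when scaled to the median gene).

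A few members passed 0.3 in every cluster in which they were measured. Atp5md, Cox7c and Atp5e were at least 0.3 higher in 17 of 17 clusters, and Atp5k, Uqcr10 and Atp5mpl in 16 of the 16 in which they were measured. Each of these 6 passed 0.3 in the same number of clusters under both other scalings, with 0.34 for Uqcr10 as the lowest value. Atp5md had the highest median over clusters, 1.16: it ranged from 899 and 572 CPM (0.65) in cluster 13 to 1453 and 364 CPM (3.99-fold) in cluster 16, where it had 218 and 40 UMIs. Cox7c varied less, from 0.38 in cluster 13 to 0.77 in cluster 15.

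Ndufs1 had the lowest median over clusters, -0.32, and was measured in 7. It stood at 25.4 and 42.2 CPM in cluster 1 (-0.74) and at 30.5 and 30.2 CPM in cluster 5 (0.01, interval -0.84 to 0.80). Its median over the 7 was -0.22 when scaled to the median gene. Cox7a2l was below 0 in 14 of 17 clusters, and in 11 when scaled to the median gene; Cox4i1 was below 0 in 12, and in 11 with that scaling. Of the 72 members, 22 were not below 0 in any cluster in which they were measured, when scaled by total UMIs.

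Levels differed between clusters as well as between libraries. With both libraries together, members took 1.01% of UMIs in cluster 5, the lowest share, and 1.65% in cluster 15 and 1.63% in cluster 16, the highest. In WT the share ran from 0.948% in cluster 5 to 1.40% in the gamma delta T cell-like cluster 13. In 5XFAD it ran from 1.19% in cluster 5 to 2.05% in cluster 15. The shares of cluster 15 rest on a few cells: its median cell, at 1.32% in 5XFAD, lay below the 5XFAD median of 1.47% in cluster 8 and of 1.58% in cluster 9. In each of the 17 clusters the 5XFAD share was the higher one. In WT the T and innate lymphoid clusters 8 to 13 and 16 all lay between 1.25% and 1.40%, above the B cell-like clusters 0 to 5, which lay between 0.948% and 1.12%; the T cell cluster 14, at 1.08%, fell among the latter. Mitochondrially encoded genes followed another order, with 5.92% of UMIs in cluster 6 and 3.33% in cluster 15.

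**Figure D4:**
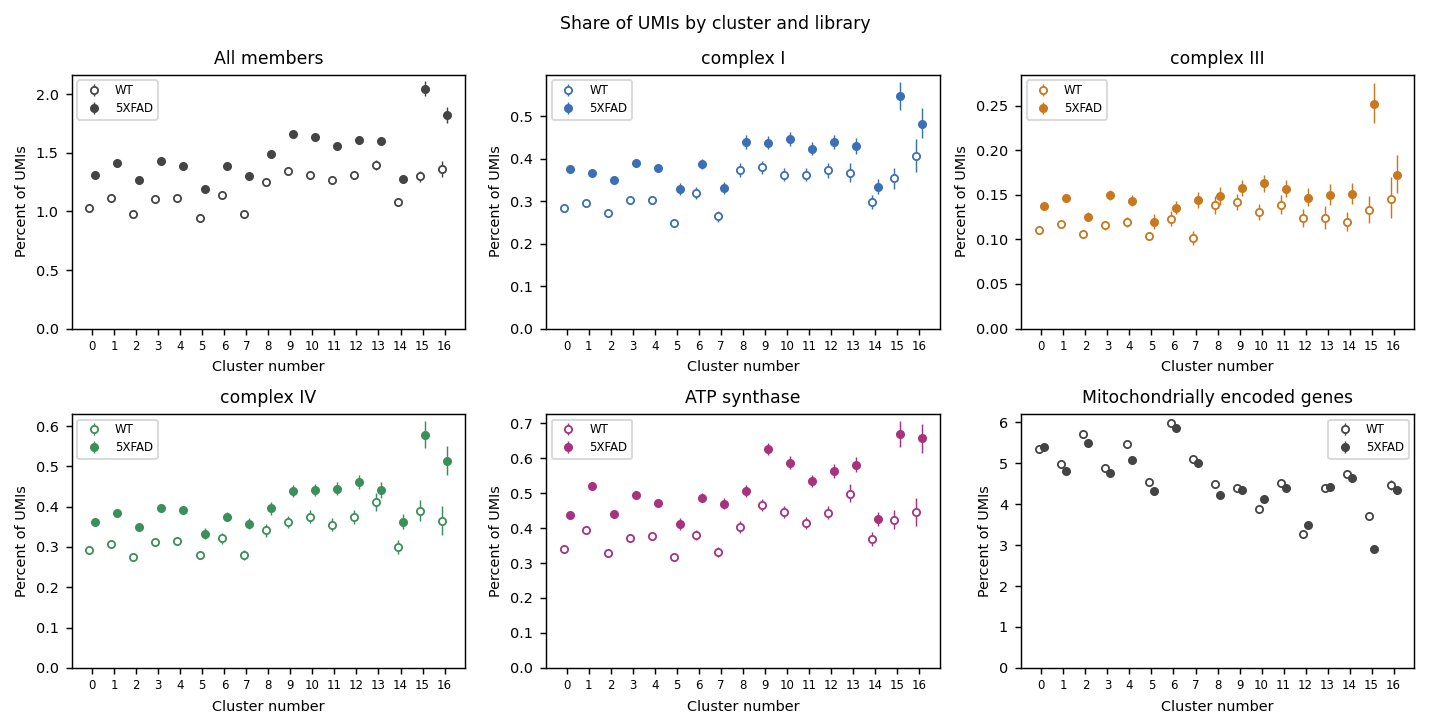
Percent of UMIs by cluster number for all members, each complex and the mitochondrially encoded genes. Open circles give WT and filled circles 5XFAD, with 95% exact intervals that cover counting error only. The 5XFAD share of all members is above the WT share in 17 of 17 clusters, while the mitochondrially encoded genes of the 2 libraries lie close together except in cluster 15, at 2.90% and 3.71%.

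Within each complex, the member whose level varied most over clusters was compared with the one that varied least, as the ratio of its highest to its lowest CPM with both libraries together. Because clusters hold the libraries in unequal numbers, this ratio mixes library and cluster, and the values within each library are given beside it. For complex III these were Uqcr11, at 5.47-fold (9.47-fold within 5XFAD and 4.38-fold within WT), and Uqcrfs1, at 1.49-fold (1.88-fold in each). For the ATP synthase they were Atp5md, at 4.41-fold, and Atp5g2, at 1.37-fold (1.29-fold and 1.59-fold). Within 5XFAD, Atp5md ran from 392 CPM in cluster 14 to 1453 in cluster 16, or 3.71-fold, and within WT from 151 CPM in cluster 5 to 572 in cluster 13, or 3.80-fold. In complex I, Ndufc2 spanned 3.59-fold (5.01-fold and 3.16-fold) and Ndufs3 1.48-fold (1.80-fold and 1.65-fold). In complex IV, Cox6c spanned 2.78-fold (3.06-fold and 2.26-fold) and Cox4i1 1.63-fold (1.78-fold and 1.59-fold). Within each library Uqcr11 and Atp5md kept the widest span of their complex, but other ranks changed. Ndufs5 spanned 5.58-fold within 5XFAD, and Ndufv3 3.79-fold and Cox6a1 2.71-fold within WT. Uqcrh spanned less than Uqcrfs1 in both, at 1.65-fold and 1.48-fold. Cluster 15 gave the highest level of Ndufc2 within each library, and of Uqcr11 within 5XFAD, and its mixed markers are given above.

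The difference between the libraries was spread over the cells. In the B cell-like clusters the median share of a cell's UMIs in members was 1.35% in 5XFAD, with quartiles of 1.19% and 1.51%, and 1.02% in WT, with quartiles of 0.891% and 1.17%. The lower quartile of 5XFAD thus lay above the upper quartile of WT. After each cell was thinned to 3000 UMIs, which left out 37 and 84 shallower cells, the medians were 1.33% and 1.03%. The quartiles then overlapped, with the lower one of 5XFAD at 1.17% and the upper one of WT at 1.2%. In clusters 8 to 14 and 16 they overlapped without thinning, at 1.30% and 1.44%.

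Lists of related genes were read the same way in the B cell-like cells, where 15.9% of all measured genes were higher, 34.3% were lower and the median was -0.12. In complex II, 2 of 4 genes were at least 0.3 higher, Sdhd at 45.9 and 30.1 CPM (0.61) and Sdhb at 69.0 and 51.9 CPM (0.41), while Sdha stood at 84.6 and 89.0 CPM (-0.07) and Sdhc at 17.2 and 20.8 CPM (-0.28, interval -0.54 to -0.01). Of 4 further genes outside the name rule, 2 were higher: Cycs, cytochrome c, at 179 and 110 CPM (0.71), and Atpif1, an inhibitor of the ATP synthase, at 82.9 and 66.1 CPM (0.33). Ndufab1 was at 0.22 and Cyc1 at 0.13. Of 42 measured assembly factors, 14 were higher and 2 lower, with a median of 0.22, and Cox17, a copper chaperone for complex IV, stood at 219 and 123 CPM (0.83).

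The regulators of mitochondrial genes stood near the background, with 2 of 12 higher, against 15.9% of all genes, 4 lower, against 34.3%, and a median of -0.10. The 4 named here have the largest ratios of the list. Ppargc1b, a coactivator of mitochondrial biogenesis, had 27 UMIs in 5XFAD and 93 in WT (-1.75, interval -2.43 to -1.12). Nrf1, the factor whose letters were searched above, stood at 28.9 and 44.5 CPM (-0.62), and Gabpb2, a GABP subunit, at 59.5 and 90.0 CPM (-0.60). Tfb2m, which starts mitochondrial transcription, stood at 41.3 and 29.9 CPM (0.47). Of 78 mitochondrial ribosomal proteins, 32 were higher and 1 lower, with a median of 0.26, led by Mrpl55 (0.79) and Mrpl33 (0.76).

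Genes of the pathways that feed the chain were read beside the same shares of all genes, 15.9% higher and 34.3% lower. In the citric acid cycle 1 of 13 genes was higher and 2 were lower, with a median of 0.06 beside -0.12 for all genes. Its largest ratios were those of Dlst, a subunit of the oxoglutarate dehydrogenase complex, at 52.8 and 74.9 CPM (-0.50), Idh3g (-0.33), Dld (0.30) and Idh3a (0.28). In glycolysis 3 of 13 were higher and 2 lower, with a median of -0.11 beside -0.12 for all genes. Among its largest ratios, Hk2, a hexokinase, had 125 and 54 UMIs (1.24) and Pgam1 was at 64.4 and 41.0 CPM (0.65). Ldha was at 0.42, and Hk1, another hexokinase, at -0.33 (interval -0.67 to 0.02).

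Among the 13 subunits encoded by mitochondrial DNA, 3 were at least 0.3 higher: mt-Atp8 at 436 and 228 CPM (0.94), mt-Nd4l at 604 and 375 CPM (0.69) and mt-Nd3 at 1359 and 907 CPM (0.58). The first 2 overlap mt-Atp6 and mt-Nd4 on the same strand, so their reads may be split. mt-Co3, with the lowest ratio of the 13, stood at 8375 and 9733 CPM (-0.22). Their median was 0.11, although the summed mitochondrially encoded UMIs gave a log2 ratio of -0.03. Among 85 measured genes matching the symbols of cytosolic ribosomal proteins, which include Rps6k kinases, 23 were higher and 8 lower, with a median of 0.10; Rps28 (1.22) and Rps29 (0.86) were among the highest. Members with near-identical processed pseudogenes, and Atp5o, whose exons overlap Donson on the same strand, are uncertain where reads could be split between copies.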

How the data were processed

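Live CD45+ colon cells of 2 pooled libraries were measured with 10x 3′ v3.1 chemistry, per the labels' protocols. The submitters' processing notes list Cell Ranger 6.0.1 and mm10; filters on cells and clustering settings are given by no source used here. The authors deposited natural log values, ln(1 + UMIs per 10000), with metadata that give the UMI count, cluster and percent of mitochondrial UMIs per cell. Counts were recovered with the deposited totals: 100% of 11758401 values were whole within 1e-06. The library called AD in the metadata, the one not called WT, was read as 5XFAD. A deposited SCT table, natural log values of 14128 genes, served as an alternative. No doublet caller was run, and 3 barcodes occur in both libraries.

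UMIs were summed per cluster set and library with Python 3.11.15 and scipy 1.17.1, divided by the total, and compared as log2 ratios with 95% exact conditional binomial intervals, checked on simulated data. Gene positions and lengths are from GENCODE vM21 (GRCm38). In the B cell-like cells, the members named are the 3 highest and 2 lowest ratios per complex, each ratio below 0, tissue isoforms and paralogues; across clusters they are the highest and lowest medians, those past 0.3 in each cluster and the most and least variable per complex. For other lists up to 4 genes with the largest ratios are named. One member, counted in all sums, is not reported here by itself. Any gene named beyond this was chosen after its values were seen. The members and lists were chosen with earlier results of these data known.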

Additional observations from a re-analysis of the deposited data

Results flagged for a closer look

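A set of 4 members was lower in 1 cluster and higher in another, each by at least 0.5 on the log2 scale with a counting interval that left out 0. Atp5d was at -0.51 in cluster 14 (65 and 91 UMIs) and 0.65 in cluster 15 (53 and 39 UMIs). Its lowest value was -0.45 when scaled to the median gene of the cluster and -0.39 with the reduced total, both short of 0.5, whereas the other 3 members stayed past 0.5 under both. Ndufa10 was at -0.89 in cluster 8 (29 and 51 UMIs) and 0.84 in cluster 10 (62 and 30 UMIs). Ndufb10 was at -0.64 in cluster 13 (50 and 50 UMIs, of unequal totals) and 0.89 in cluster 15 (32 and 20 UMIs). Uqcrfs1 was at -0.69 in cluster 11 (56 and 72 UMIs) and 0.54 in cluster 7 (93 and 59 UMIs). With 1 library per genotype the difference between clusters was not tested, and each pair was picked out of 71 members in 17 clusters.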

How the results depend on the processing

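The values rest on 1 library per genotype, so scaling and counting are all that could be varied. Scaling to the median gene raised the median over members from 0.34 to 0.47, the ratio of summed members from 0.37 to 0.50 and the medians of complexes III, IV and the ATP synthase to 0.52, 0.55 and 0.43, and left 0 members lower by 0.3. A total without mitochondrially encoded, ribosomal protein and immunoglobulin genes gave 0.46 for the summed members, 0.52 for complex IV, 0.39 for the ATP synthase and 0 members lower. The summed ratio was 0.38 as a mean over cells, 0.39 after thinning to 3000 UMIs and 0.36 without cluster 5. Members lower by 0.3 were 2 with no minimum of UMIs and 0 after thinning. A limit of 0.5 left 22 higher and 0 lower. With at least 200 UMIs, cluster 16 kept 1 member, Atp5md, at 1.997. Over 9 alternatives in 17 clusters, 153 of 153 medians over members were above 0, the lowest, 0.06, in cluster 13 with at least 200 UMIs. All of these medians are drawn from the same 1 library per genotype, so their number is no measure of replication. No paired analysis was possible because the labels give no replicate numbers and each genotype has 1 library.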
